A study of Rattus norvegicus with 18 samples.

Results

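Whole testis RNA of rats under chronic sleep restriction (CSR) was compared with that of control rats, to ask which transcripts differed, what they do and which testis cells they come from. All animals were Wistar rats aged 8 weeks, without a named mutation or transgene; the CSR group had been kept under sleep restriction and the control group had not. The 6 RNA libraries, 3 CSR and 3 control, were chosen by their labels from the 18 samples of the series, of which the other 12 are methylation libraries. The deposited table lists 7016 rows, each a RefSeq transcript accession with a value in every library, and 5657 of these reached 1 FPKM in 3 or more libraries and entered the test. FPKM is a count of sequenced fragments divided by the length of the transcript and by the mapped total of its library. Values given below as a run of 3 are for libraries 1, 2 and 3 of a group, and ± marks a standard deviation over the 3 libraries. The text of the series mentions 6 samples a group, more than the RNA libraries labelled, and no label ties a library to a separate animal. The p-values therefore reflect the spread among the libraries, which may be technical. The sample codes of control libraries 1 and 2 differ only in the last digit.

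The testis makes sperm in seminiferous tubules. Spermatogonia divide and enter meiosis as spermatocytes, which become round and then elongating spermatids, and in the elongating cell most histones give way first to transition proteins and then to protamines. Sertoli cells support these germ cells inside the tubule, peritubular myoid cells wrap it, and Leydig cells outside it make testosterone. Loss of sleep is known to act on the glucocorticoid and circadian systems, and genes of both are among those described here. In whole tissue, fewer cells of a type and less RNA per cell cannot be told apart.

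The tissue label was checked against marker lists written by cell type. Markers of spermatids and Sertoli and Leydig cells were present in every library, with *Tnp1*, a transition protein, between 3903 and 7730 FPKM. The epididymis list had 1 of its 15 entries in the table, *Cst8* at 47.7 to 71.4 FPKM, and the endothelial list had 1 of its 16. The hemoglobin gene *Hba-a1* ranged from 3.02 to 28.9 FPKM with values of both groups interleaved. Library medians ran from 3.69 to 3.97 FPKM. The read depth is unknown. One feature of the controls touches many results. Control library 3 lay within the range of the CSR libraries at 54.1% of the tested rows, against 35.1% and 34.2% for control libraries 1 and 2. The main results are given with and without control library 3. Whether the odd library is number 3, or numbers 1 and 2 share a source, cannot be told apart. If numbers 1 and 2 share a source, the controls left without control library 3 are not independent. The p-values of that fit may then be too small.

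Few single transcripts passed the test. By limma on log2(FPKM + 1) with Benjamini-Hochberg adjustment at 0.05, 25 rows were called, which is 0.442% of those tested. Of these, 13 were higher in CSR (0.23%) and 12 lower (0.212%). Among the 12, 8 were listed at 0 throughout CSR and passed the filter through the control group alone. With values above 0 required in all 6 libraries, 12 rows were called higher and 4 lower. At an unadjusted p under 0.05 there were 334 higher and 414 lower rows. A log2 fold change of at least 1 was reached by 179 rows upward and 289 rows downward. The 3 CSR values lay above all 3 control values at 507 rows (8.96%) and below them at 712 rows (12.6%). Without control library 3 the test called 169 rows higher (2.99%) and 90 lower (1.59%), and all 25 rows of the full comparison were among them. With control libraries 1 and 2 averaged into 1, the test called 7 rows, of which 5 were among the 25. Leaving out control library 1 or control library 2 left 4 of the 25 called, and leaving out CSR library 1, 2 or 3 left 10, 8 and 6. *Rpl15*, *Tra2a* and *Rpph1* passed whichever library was left out, *Slc3a2* passed in 5 of these 6 fits and *Srsf2* in 4. *Rpl15* and *Tra2a* are among the rows listed at 0 throughout CSR, so leaving out a CSR library could not change their fold changes. Their passes in those fits are no check on the CSR values.

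**Figure D1:**
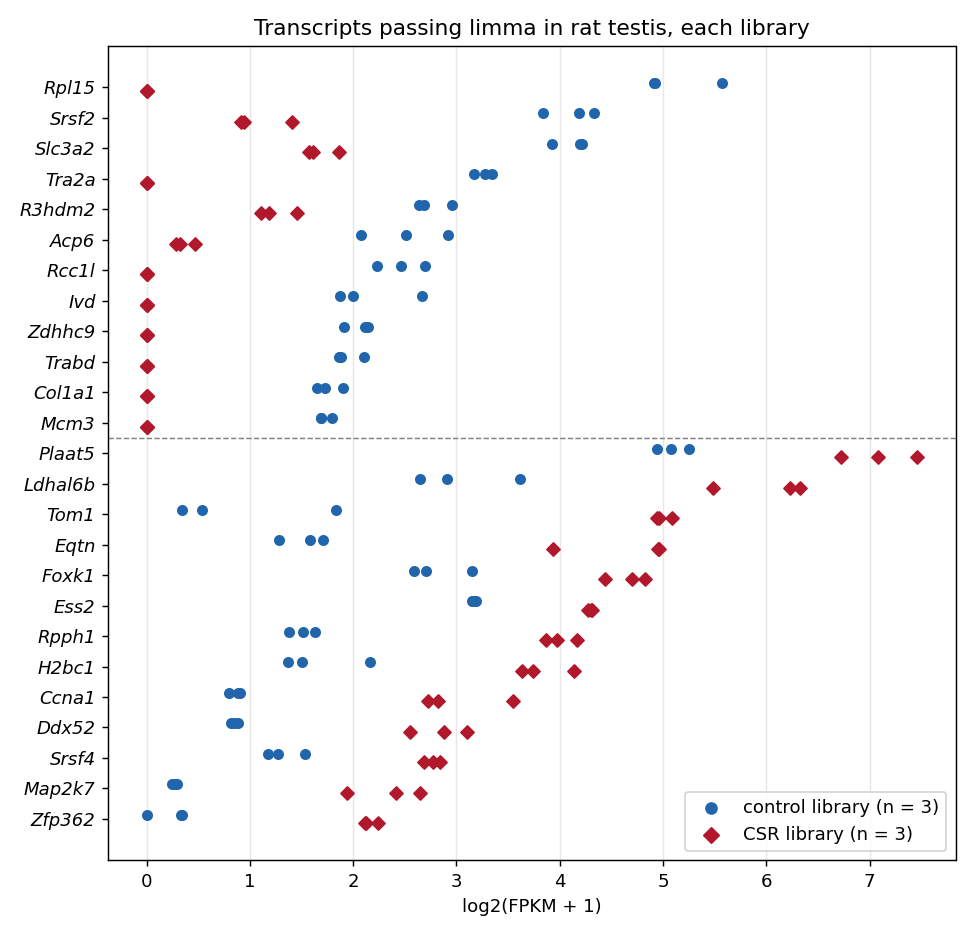
Level of each called transcript in every library, as log2(FPKM + 1) on the horizontal axis, with CSR libraries as red diamonds and control libraries as blue circles. The 12 lower transcripts are above the dashed line and the 13 higher ones below it; no transcript has overlapping groups, and 8 of the lower ones sit at 0 in all 3 CSR libraries.

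Genes of the male germ line were among those that rose. *Eqtn* (NM_001039345) encodes equatorin, an acrosomal membrane protein. It stood at 30.1, 30.0 and 14.2 FPKM in CSR against 1.44, 2.27 and 2.00 in control. *Ldhal6b* (NM_183334), a testis-expressed relative of lactate dehydrogenase A, stood at 43.8, 79.4 and 74.0 in CSR against 6.51, 11.2 and 5.25 in control. In both genes the lowest CSR value was several times the highest control value. The log2 fold change of *Ldhal6b* was 2.96 with a standard error of 0.33 (limma, adjusted p = 0.0328). *Ccna1* (NM_001011949), the meiotic cyclin A1, rose from a low level, with 10.7, 5.59 and 6.06 FPKM in CSR against 0.875, 0.841 and 0.735 in control, a log2 difference of 2.17 ± 0.26 (standard error, limma adjusted p = 0.0421). *H2bc1* (NM_022643), the testis form of histone H2B, was at 12.4, 11.4 and 16.5 FPKM in CSR against 1.83, 1.59 and 3.48 in control, a log2 difference of 2.16 ± 0.26 (limma adjusted p = 0.0421). *Plaat5* (NM_001039007), a phospholipid-acting acyltransferase, was the most abundant of the called rises in CSR, at 104.6, 134.3 and 175.04 FPKM, against 29.8, 32.7 and 37.04 in control.

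The marker lists of the cell types that express *Eqtn* and *Ccna1* gave no other call. *Eqtn* was the single called row among 22 round spermatid markers, of which 11 had positive and 11 negative differences, and *Ccna1* the single one among 15 tested markers of meiotic spermatocytes, 10 positive and 5 negative. In each list 4 rows, these included, lay above all controls, against 8.96% of all tested rows. Below all controls lay 3 of the round spermatid rows and 2 of the spermatocyte rows, against 12.6% of all tested rows. Other acrosome genes lay on both sides. *Acr*, the acrosin protease precursor, stood at 85.9, 107.5 and 99.0 FPKM in CSR against 52.8, 16.4 and 77.7 in control and did not pass (limma adjusted p = 0.378). *Adam2*, a sperm surface protein of fertilization, was lower without passing, at 54.3, 46.0 and 53.1 against 80.3, 69.7 and 59.8. In all, 16 of 45 acrosome and fertilization genes had positive and 29 negative differences, and their median log2 difference was -0.17 against -0.06 for all tested rows.

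The start regions of the 4 called germ-line genes are shown because the genes share their direction. RefSeq (GRCr8) promoters were searched on both strands for the cyclic AMP response element TGACGTCA and its partial form TGACG, the E-box CACGTG, the GC box GGGCGG, the CCAAT box, the TATA box letters TATAAA, the glucocorticoid response element arm AGAACA and the RFX X-box arm GTTGCC. The 250 bases before each start follow, 5′ to 3′, with matches in capitals.
H2bc1, chr17:41599662-41599911, plus strand: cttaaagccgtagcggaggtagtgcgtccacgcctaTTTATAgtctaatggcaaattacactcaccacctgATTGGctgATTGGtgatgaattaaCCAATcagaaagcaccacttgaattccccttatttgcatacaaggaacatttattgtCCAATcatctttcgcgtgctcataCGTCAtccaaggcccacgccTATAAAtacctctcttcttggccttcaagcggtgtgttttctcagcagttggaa
Ldhal6b, chr1:48404421-48404670, minus strand: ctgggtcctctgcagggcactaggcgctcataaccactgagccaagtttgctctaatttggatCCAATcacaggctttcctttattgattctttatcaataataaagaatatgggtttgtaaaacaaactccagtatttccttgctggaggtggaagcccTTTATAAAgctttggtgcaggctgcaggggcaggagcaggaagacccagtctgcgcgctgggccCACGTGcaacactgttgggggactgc
Eqtn, chr5:114877570-114877819, minus strand: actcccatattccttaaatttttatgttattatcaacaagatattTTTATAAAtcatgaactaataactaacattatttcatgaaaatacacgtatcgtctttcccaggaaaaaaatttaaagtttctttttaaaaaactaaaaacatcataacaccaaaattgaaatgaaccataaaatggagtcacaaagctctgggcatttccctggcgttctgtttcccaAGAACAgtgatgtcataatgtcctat
Ccna1, chr2:141393301-141393550, minus strand: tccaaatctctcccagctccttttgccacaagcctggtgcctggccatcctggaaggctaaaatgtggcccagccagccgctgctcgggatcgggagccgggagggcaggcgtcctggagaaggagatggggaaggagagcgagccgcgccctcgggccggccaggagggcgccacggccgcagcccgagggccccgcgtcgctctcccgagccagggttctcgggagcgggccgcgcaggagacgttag
TATAAA was matched in H2bc1, *Ldhal6b* and *Eqtn*, and CCAAT in H2bc1 and *Ldhal6b*, while the other matches differed between the 4 genes. H2bc1 holds 4 CCAAT matches, a TATAAA match that begins 54 bases before the start and a TGACG match on the other strand at 74 bases. *Ldhal6b* holds a CACGTG 26 bases before the start, and *Eqtn* an AGAACA at the same distance. *Ccna1* holds none of the searched letters in a window with 70.4% G or C, against 29.2% in *Eqtn*. Matches of TATAAA on both strands overlap where the letters read TTTATAAA. The shares that follow were counted over a longer window, which also holds bases after the start. A promoter was listed for 8 of the 13 genes that rose. Of these 8, 3 (37.5%) held TATAAA, namely H2bc1, *Ldhal6b* and *Eqtn*. The share was 6.41% among promoters of tested genes and 14.2% among all 33469 promoters. TGACG was in 4 of the 8, against 36.3% and 21.2%. For the genes called lower, 9 promoters of 8 genes were listed, and GGGCGG was in 8 of the 9 (88.9%), against 60.8% and 33.1%. These shares are descriptions of a handful of sequences.

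None of the other rises was on a cell of origin list. *Tom1* (NM_001008365), an adaptor of endosomal traffic, had the greatest called rise, at 33.0, 30.2 and 29.7 FPKM in CSR against 0.446, 2.56 and 0.265 in control, a log2 difference of 4.10 ± 0.40 (standard error, limma adjusted p = 0.0269). *Map2k7* (NM_001025425), a kinase upstream of JNK, was at 4.33, 2.83 and 5.25 against 0.208, 0.181 and 0.227. The transcription factor gene *Foxk1* (NM_001037219) was at 20.7, 24.9 and 27.5 against 5.02, 5.52 and 7.89. No control value of these 3 genes reached a CSR value. *Zfp362* (NM_001191612), a zinc finger gene, was at 3.37, 3.72 and 3.33 in CSR against 0.271, 0.263 and 0 in control. *Ddx52* (NM_053525), an RNA helicase gene, was at 7.58, 4.87 and 6.33 against 0.763, 0.850 and 0.801. Both passed limma, with adjusted p of 0.0328 for *Zfp362* and 0.0269 for *Ddx52*.

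*Rpph1* (NR_002703) is the RNA of RNase P, the enzyme that trims the 5′ ends of transfer RNA, and it carries no poly(A) tail. It rose, at 13.6, 14.8 and 17.0 FPKM in CSR against 1.60, 2.09 and 1.86 in control (log2 difference 2.50 ± 0.15, limma adjusted p = 0.00449). Per the labels the libraries were made from poly(A) RNA. Another 4 RNAs without such a tail were therefore looked up, a choice made after their values were seen. *Rn7sl1*, the RNA of the signal recognition particle, stood at 32.0, 29.1 and 36.0 in CSR against 6.11, 9.71 and 24.4 in control, with groups apart and no pass (limma adjusted p = 0.363). *Rn5-8s* ribosomal RNA was at 179, 17.2 and 46.6 against 14.4, 7.74 and 11.5, and *Rn18s* ribosomal RNA at 737, 537 and 749 against 563, 431 and 514. *Bc1*, a small cytoplasmic RNA, overlapped between groups, at 28.6, 36.6 and 22.8 against 14.8, 18.7 and 27.6. The ratio of CSR to control means was above 1 for all 5, from 1.34 for *Rn18s* to 8.17 for *Rpph1*. The part of carry-over of RNA without a tail in the rise of *Rpph1* was not tested.

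Among splicing genes 4 rows were called, 2 in each direction. *Tra2a* (NM_001126296) and *Srsf2* (NM_001009720), which bind exonic enhancers and promote exon use, were called lower. *Tra2a* was listed at 0 throughout CSR and stood at 8.01, 8.72 and 9.15 FPKM in control (limma adjusted p = 0.00293). *Srsf2* was at 0.883, 0.925 and 1.65 against 17.2, 19.2 and 13.3 (limma adjusted p = 0.00756). *Srsf4* (NM_001108685), of the same protein family, rose, at 5.83, 6.15 and 5.45 against 1.89, 1.42 and 1.26 (adjusted p = 0.0421). *Ess2* (NM_001012472), a nuclear protein of the spliceosome, rose with the smallest standard error of the called rows, at 18.3, 18.9 and 18.8 FPKM against 7.97, 8.13 and 7.87 (log2 difference 1.13 ± 0.09, adjusted p = 0.0154). Of the 87 tested splicing rows, 51 had positive and 36 negative differences with a median of 0.09, 2 were called higher and 2 lower (0.23% and 0.212% of all tested rows). Without control library 3 the calls were 7 higher and 2 lower (2.99% and 1.59% of all tested rows). Among the rows gained was *Srsf5* NM_001195505, at 45.0, 40.9 and 48.6 FPKM in CSR against 7.91, 9.05 and 40.04 in control. The value of control library 3 lay beside the CSR values.

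The remaining rows called lower were in genes of several functions. *Rpl15* (NM_139114), a protein of the large ribosomal subunit, was listed at 0 in each CSR library. It stood at 29.1, 29.3 and 46.7 FPKM in control (limma adjusted p = 0.00168). Of 81 tested cytosolic ribosomal protein rows 55 had positive differences and 26 negative ones, with a median of 0.14, and no other row passed. Without control library 3, 10 of the 81 were called higher and 3 lower, against 2.99% and 1.59% of all tested rows. The deposited accession may share reads with processed copies of the gene, and the part of this was not tested. Other ribosomal protein rows varied within the controls, such as *Rps16* at 122.8, 103 and 100.4 against 70.3, 19.4 and 18.8. *Rcc1l* (NM_001108332), a partner of the mitochondrial ribosome, was listed at 0 in CSR against 3.71, 4.51 and 5.48 in control. *Ivd* (NM_012592), an enzyme of leucine breakdown, was listed at 0 against 5.33, 3.01 and 2.66. *Acp6* (NM_001031645), a mitochondrial lysophosphatidic acid phosphatase, was at 0.383, 0.220 and 0.254 against 3.23, 6.53 and 4.71. These 3 genes serve mitochondria, and none had a CSR value near its control values.

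*Zdhhc9* (NM_001039016), a palmitoyltransferase that acts on Ras proteins, was listed at 0 in CSR and at 3.43, 3.34 and 2.76 FPKM in control. *Trabd* (NM_001106788) was listed at 0 against 2.64, 2.69 and 3.30. *Mcm3* (NM_001191805), part of the helicase that opens DNA for replication, was listed at 0 against 2.22, 2.47 and 2.21. All 3 passed limma, with adjusted p of 0.0269, 0.0328 and 0.0421, and had entered the test through the control group alone. *Col1a1* (NM_053304), the main chain of type I collagen and the only called marker of somatic cells, was listed at 0 against 2.30, 2.14 and 2.73 (adjusted p = 0.0421). *R3hdm2* (NM_001130557) fell without reaching 0, at 1.75, 1.28 and 1.15 against 5.22, 6.77 and 5.45.

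*Slc3a2* encodes the heavy chain shared by several amino acid transporters, and it appears as a pair of accessions that moved in opposite directions. NM_001271089 fell, at 1.98, 2.63 and 2.05 FPKM in CSR against 17.4, 17.5 and 14.2 in control (log2 difference -2.43 ± 0.15, limma adjusted p = 0.00482). NM_019283 was higher with groups apart but did not pass, at 35.1, 38.6 and 28.8 against 19.9, 22.3 and 23.5 (adjusted p = 0.208). Their sum was 36.4 ± 5.20 FPKM in CSR against 38.3 ± 1.35 in control (SD over 3 libraries of each group). The first accession made up 5.34, 6.39 and 6.65% of the sum in CSR against 46.6, 44.05 and 37.6% in control. The shift between the accessions was thus greater than the spread between libraries, while the sums overlapped. FPKM for accessions of 1 gene depend on how shared reads are divided between them.

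**Figure D2:**
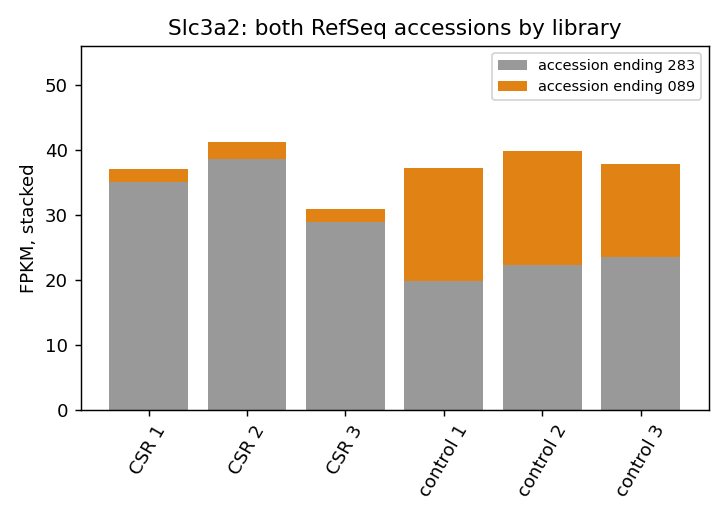
FPKM of the 2 accessions of Slc3a2, stacked, in each of the 3 CSR and 3 control libraries. Orange is the accession that fell (NM_001271089), 1.98 to 2.63 FPKM in CSR and 14.2 to 17.5 in control, and grey is NM_019283; the total height is similar in both groups.

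The shares of accessions were compared in the same way for other genes. The table holds 152 genes with more than 1 row and a sum of at least 1 FPKM in every library. In 21 of them the share of an accession did not overlap between the groups, and in 5 the mean shares differed by at least 20 percentage points. Of single rows, 8.96% were apart on the higher and 12.6% on the lower side. Besides *Slc3a2* the 5 were *Dbnl*, *Tmem11*, *Atg101* and *Ddah2*, whose summed levels were between 1.23 and 4.32 FPKM in every library. The next 2 genes were chosen after their values were seen. *Txndc2*, a thioredoxin of the sperm tail, showed a smaller shift at a higher level, with NM_001005559 making up 74.9 ± 4.24% of the sum in CSR and 61.7 ± 3.22% in control. *Aldoa*, the glycolytic aldolase, shifted by 9.22 points, from 97.4 ± 0.643% for NM_012495 in control to 88.2 ± 2.99% in CSR.

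**Figure D3:**
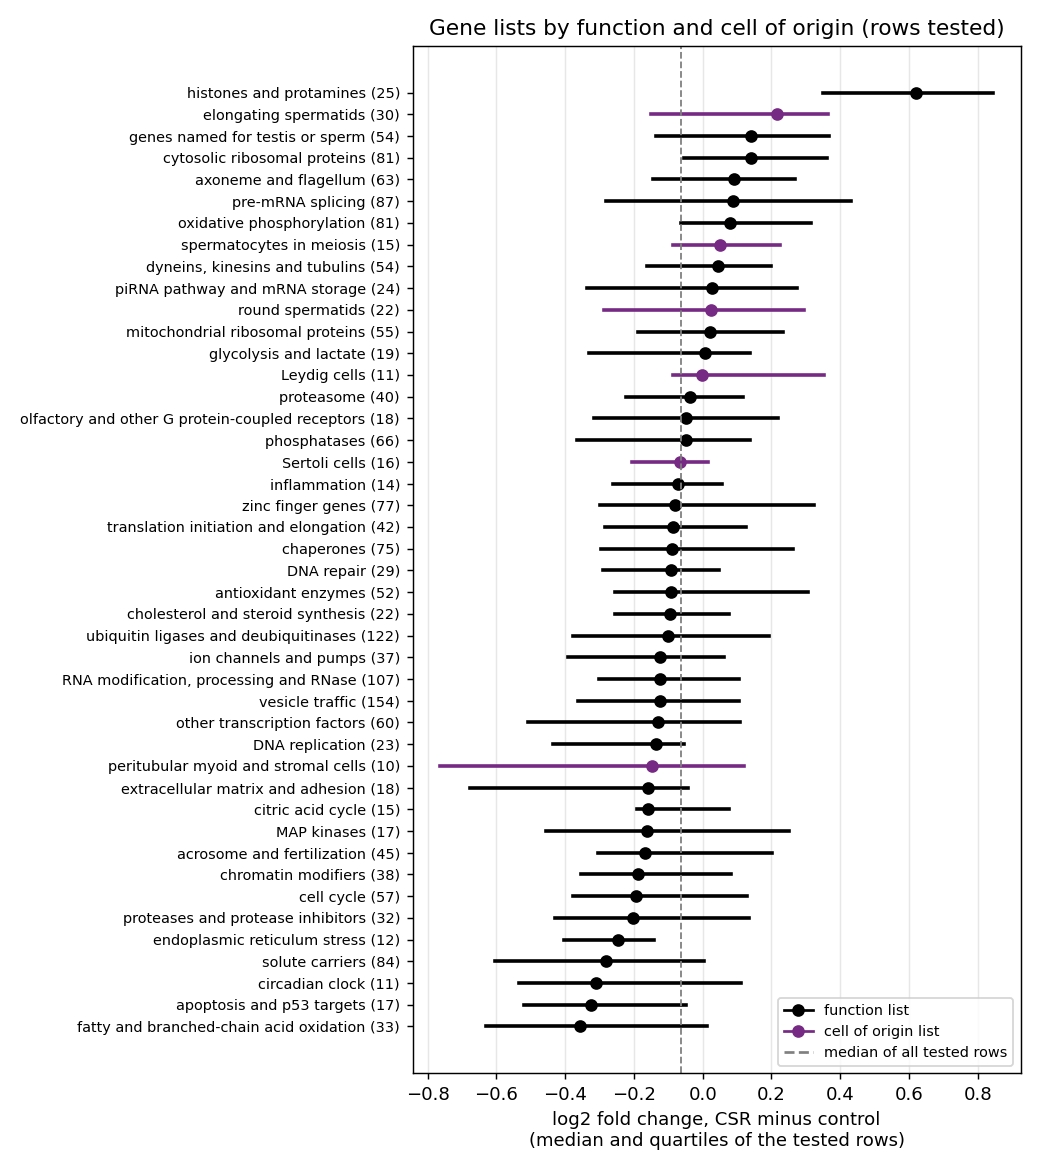
Median (circle) and quartiles (line) of the log2 difference CSR minus control for each list with at least 10 tested rows, number of rows in parentheses, cell of origin lists in purple and function lists in black. The dashed line is the median of all 5657 tested rows, -0.06; the list of histones and protamines lies furthest to the right, with a median of 0.62.

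Across functions, histones and protamines stood highest. Of 25 tested rows, 24 had positive and 1 a negative difference, against 2490 positive and 3167 negative among all rows. The median was 0.62 against -0.06. Only *H2bc1* passed the test in all 6 libraries, while 10 of the 25 rows had CSR values above all control values, as did 8.96% of all tested rows. Without control library 3, 6 were called higher (2.99% of all tested rows) and none lower. No row of the list was at 0 in all CSR libraries. *H2ac18*, a replication histone, stood at 212, 231 and 323 FPKM in CSR against 97.2, 110.2 and 38.2 in control (limma adjusted p = 0.251). *H1f7*, the linker histone of elongating spermatids, stood at 66.6, 69.4 and 74.9 against 30.9, 49.4 and 47.8 (adjusted p = 0.281), and *H1f6*, the testis linker histone, at 4.66, 5.32 and 8.00 against 3.62, 3.04 and 3.96 (adjusted p = 0.363). *H2ap* was at 152, 148 and 159.6 against 75.8, 87.7 and 137. In each of these 4 genes the groups did not overlap, and none passed. Messages of replication histones lack a poly(A) tail, as *Rpph1* does, and histone genes are near-identical copies among which reads can be split. The part of either in these values was not tested.

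The transition proteins and protamines, which take the place of histones, did not follow a common pattern. *Tnp2* stood at 4111, 4328 and 3926 FPKM in CSR against 2668, 3186 and 3816 in control, and *Tnp1* at 3903, 7202 and 7415 against 4298, 4411 and 7730. *Tnp2* was apart between groups without passing (limma adjusted p = 0.381), and *Tnp1* overlapped. The protamine gene *Prm1* was at 3029, 2572 and 968 in CSR against 0.0934, 0.0981 and 877 in control, and *Prm2* at 360.2, 316 and 145 against 0.7503, 0.407 and 328. For both protamines control library 3 lay with the CSR libraries and the other 2 controls were near 0. Their adjusted p was 0.363 and 0.378 with all libraries, and 0.00569 and 0.0104 without control library 3. The latter fit keeps only the control libraries that may share a source.

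The same split among the controls was looked for in the whole table. At 12 rows control libraries 1 and 2 both lay at least 2 log2 units below each of the other 4 libraries, and at 0 rows did they lie as far above. By the same gap, all CSR libraries lay above all controls at 3 rows and below them at 5. Besides *Prm1*, *Prm2* and *Srsf5*, the 12 held *Izumo1*, the sperm protein that binds the egg, at 26.8, 28.1 and 32.2 FPKM in CSR against 1.06, 0.482 and 30.7 in control. *Ggn*, a germ-cell gene, was at 9.74, 13.7 and 18.0 against 0.0294, 0.468 and 18.8. *Cct6b*, a testis chaperonin subunit, was at 38.6, 37.5 and 37.8 against 5.76, 6.37 and 35.3. *Defb36*, a beta-defensin, was at 57.8, 60.7 and 43.4 against 9.499, 7.91 and 46.5. None of the 12 passed in the comparison of all libraries.

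**Figure D4:**
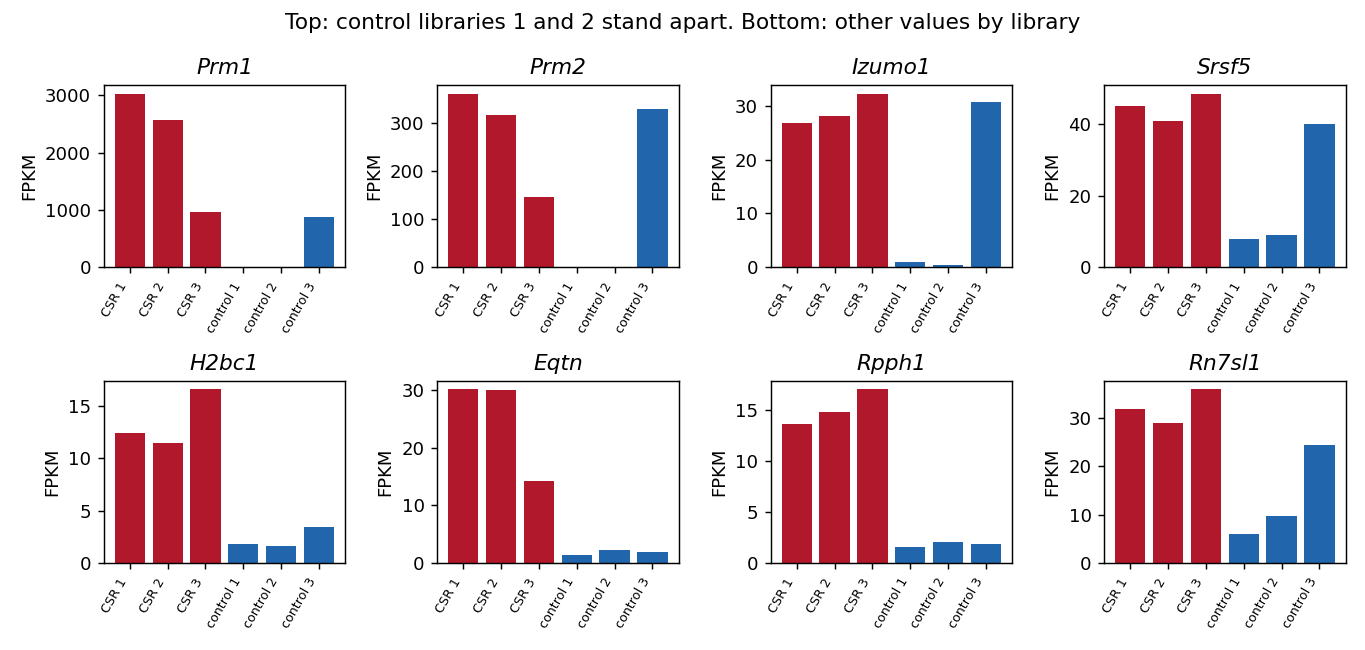
FPKM of 8 genes in each library, CSR in red and control in blue, with bars from 0. In the top row (Prm1, Prm2, Izumo1, Srsf5) control libraries 1 and 2 are low and control library 3 lies near the CSR libraries; in the bottom row H2bc1, Eqtn and Rpph1 are low in all 3 controls, and Rn7sl1 is at 24.4 in control library 3.

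The lists by cell of origin gave 3 called rows. Over all germ cell lists together 73 rows were tested, 43 positive and 30 negative, with a median of 0.09. Of these, 2 (*Eqtn* and *Ccna1*) were called higher, as were 0.23% of all tested rows. Elongating spermatid markers had 20 positive and 10 negative differences and a median of 0.22, with none called and 2 called higher without control library 3. The median was 0.02 under quantile normalization and 0.07 without control library 1. Over all germ cell lists 5 rows were called higher and none lower without control library 3, against 2.99% and 1.59% of all tested rows. The summed level of the elongating spermatid markers was 23521 to 26748 FPKM in CSR, 15981 and 17835 in control libraries 1 and 2, and 25552 in control library 3. Meiotic genes were mixed: *Hormad1*, a protein of the unpaired chromosome axis, stood at 18.3, 11.8 and 16.5 against 32.5, 29.0 and 20.4 and did not pass (limma adjusted p = 0.363), and *Sycp3*, of the synaptonemal complex, overlapped at 146, 109.4 and 108.9 against 131, 136 and 60.1. Spermatogonial markers were thinly covered, with 6 of 22 in the table, 2 positive and 4 negative.

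Somatic markers gave 15 positive and 29 negative differences over 44 rows, with a median of -0.07 close to that of all rows, and *Col1a1* as the only call. In the Sertoli cell list, 5 were positive and 11 negative, and its summed level was 229 to 256 FPKM in CSR and 252 to 268 in control. *Ctsl*, a lysosomal protease that Sertoli cells secrete, had tight groups apart, at 30.4, 30.3 and 33.0 against 39.9, 41.1 and 40.05, and did not pass (limma adjusted p = 0.210). *Sox9*, a transcription factor of Sertoli cells, overlapped, at 3.71, 3.86 and 2.91 against 3.59, 3.62 and 3.09. Of 11 tested Leydig cell rows 5 were positive and 6 negative. *Star*, which brings cholesterol into mitochondria, stood at 7.01, 9.95 and 4.10 against 4.49, 5.58 and 2.78, and *Cyp17a1*, an enzyme of androgen synthesis, at 15.8, 28.5 and 11.3 against 18.9, 30.6 and 9.26. Both overlapped between the groups. *Insl3*, a Leydig cell hormone, overlapped too, at 57.8, 67.7 and 46.9 against 33.0, 38.7 and 56.2. Of 10 tested peritubular myoid and stromal rows 3 were positive and 7 negative. Against most of that list, *Myh11*, smooth muscle myosin of peritubular cells, was higher with groups apart and no pass. It stood at 15.8, 17.0 and 14.7 against 12.6, 10.8 and 14.2. Of 7 tested rows of macrophages and other immune cells 2 were positive and 5 negative. *Lyz2*, a macrophage lysozyme, was lower with groups apart and no pass, at 4.0002, 5.23 and 3.98 against 7.05, 6.58 and 6.54.

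Other functions lay on the lower side. Fatty and branched-chain acid oxidation had 9 positive and 24 negative differences among 33 rows and the lowest median of the lists with at least 10 rows, -0.36, with *Ivd* called. Among the 20 rows of this list above 0 in all 6 libraries the median was -0.046, against 0.006 for all such rows. The list was not uniform. *Hadha*, the alpha subunit of the mitochondrial trifunctional protein, was higher with groups apart, at 75.7, 61.5 and 67.3 FPKM against 39.7, 35.6 and 48.6, and did not pass (limma adjusted p = 0.165; 0.0324 without control library 3). Without control library 3, 1 row of the list was called higher and 3 lower (2.99% and 1.59% of all tested rows). Solute carriers had 22 positive and 62 negative differences, a median of -0.28 and 1 call, the *Slc3a2* accession. Apoptosis genes were 3 positive and 14 negative with a median of -0.32, and endoplasmic reticulum stress genes 1 and 11 with -0.25, with no call in either. DNA replication genes were 4 positive and 19 negative with a median of -0.14 and 1 call, *Mcm3*. Among rows above 0 in all 6 libraries, the median was -0.18 for solute carriers and -0.18 for apoptosis genes. It was -0.23 for endoplasmic reticulum stress and -0.08 for DNA replication genes, against 0.006 for all such rows. *Rfc4*, a clamp loader subunit, stood at 27.6, 21.2 and 25.9 against 35.1, 34.7 and 39.5 (adjusted p = 0.234). Cell cycle genes were 19 positive and 38 negative, with *Ccna1* called higher. *Ccnb1*, the mitotic cyclin B1, stood at 13.8, 11.8 and 10.2 against 18.8, 18.7 and 14.3 without passing.

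Oxidative phosphorylation genes lay slightly on the higher side, 52 positive and 29 negative with a median of 0.08, and none passed. Without control library 3, 9 of these were called higher and 2 lower, where 2.99% and 1.59% of all tested rows were. Genes of the axoneme and flagellum were 38 positive and 25 negative with a median of 0.09 and no call, and 3 were called higher and 1 lower without control library 3. Vesicle traffic genes were 54 positive and 100 negative with a median of -0.12, 1 called higher (*Tom1*) and 1 lower (*Zdhhc9*). Leaving out control library 3 gave 2 called higher and 4 lower.

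Neither glucocorticoid nor clock genes gave a call. Of 9 tested glucocorticoid receptor and response rows 5 were positive and 4 negative, with a median of 0.08. The metallothionein *Mt1*, which glucocorticoids induce, stood at 457, 457 and 447 FPKM in CSR against 251, 277 and 479 in control. Control library 3 again lay with the CSR libraries, and the adjusted p was 0.395 with it and 0.0183 without it (limma). *Dusp1*, a phosphatase that glucocorticoids also induce, was listed at 0 in CSR against 1.13, 1.72 and 1.52 in control, and did not pass (adjusted p = 0.143). *Hsd11b1*, which regenerates active glucocorticoid and marks Leydig cells, was lower with groups apart, at 9.49, 10.6 and 8.63 against 13.3, 13.2 and 10.6 (adjusted p = 0.372). The 11 clock rows were 5 positive and 6 negative with a median of -0.31, which turned to 0.03 under quantile normalization. *Per1* overlapped, at 14.6, 15.9 and 15.4 against 11.9, 16.0 and 15.8. *Ciart*, a clock repressor, was higher with groups apart, at 4.06, 4.97 and 5.04 against 2.34, 3.39 and 3.01, and did not pass (adjusted p = 0.363).

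Values of exactly 0 were more frequent in CSR. The CSR libraries listed 1183, 1000 and 1415 of the 7016 rows at 0, and the control libraries 330, 275 and 423. The groups did not overlap (means 1199 ± 208 and 343 ± 74.8, SD, n = 3 each; two-sided exact permutation p = 0.1, the smallest that 3 against 3 can give). An exact 0 in such a table can be a failed estimate, and genes that every cell uses, such as *Rpl15*, were among them, so a row at 0 is described only as listed at 0. In all, 202 rows (2.88%) were listed at 0 throughout CSR while every control value was above 0. The reverse held for 1 row, *Gtpbp6*, at 0.519, 0.583 and 0.831 FPKM in CSR. Another 383 rows were at 0 in 2 CSR libraries and no control, and 746 in 1 CSR library and no control.

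The 202 rows were low in control. Their control means ran from 0.361 to 35.0 FPKM with a median of 1.01, and 53 had every control value at or above 1. Of rows with a control mean under 1 FPKM, 7.58% belonged to them, of rows between 1 and 2 FPKM 7.88%, and between 2 and 4 FPKM 1.51%. Above 4 FPKM there were 3 rows, *Rcc1l*, *Tra2a* and *Rpl15*. With values under 0.5 FPKM counted as absent the difference remained, with 163 rows against 36 in the reverse direction. Only 53 of the 202 rows were tested, since the others did not reach 1 FPKM in 3 libraries. Of the 53, 8 were called, all among the rows called lower above. Rows that passed the filter did so through the control group alone. Of the 202 rows, 8 had another row of the same gene, such as *Akap12*, where NM_001033653 was at 0 in CSR against 0.789, 2.01 and 1.48 in control while NM_057103 stood at 39.9, 36.3 and 36.6 against 32.3, 31.1 and 42.2. For *Sacm1l*, a phosphoinositide phosphatase, both accessions were at 0 in all CSR libraries.

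**Figure D5:**
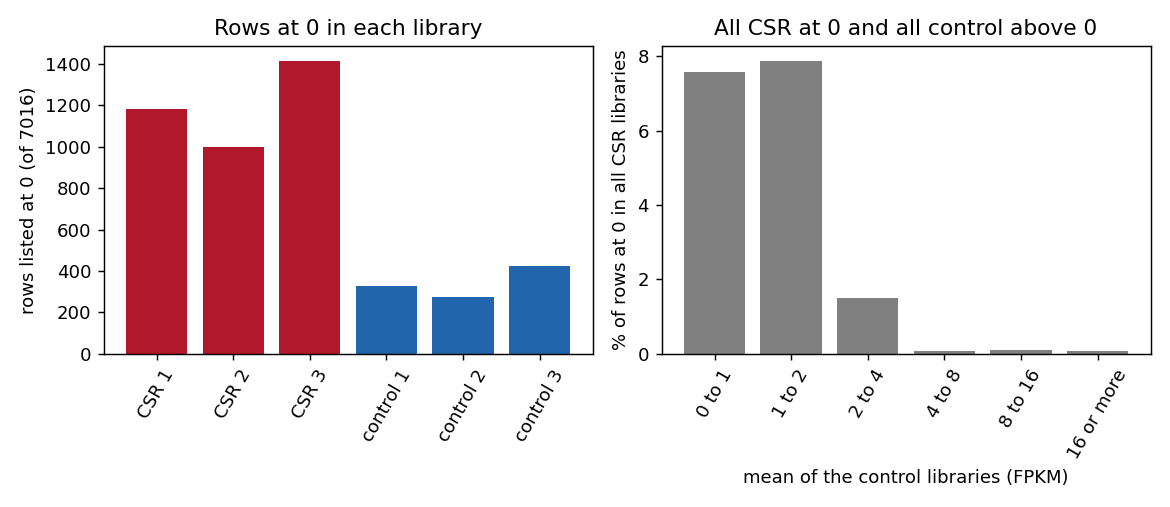
Left, number of the 7016 rows listed at 0 in each library, 1000 to 1415 in CSR (red) and 275 to 423 in control (blue). Right, share of rows at 0 throughout CSR with every control above 0, by the mean of the control libraries in FPKM: 7.58% and 7.88% in the lowest classes and 0.0886% between 4 and 8 FPKM.

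By function, the rows at 0 spread widely, with 57 of them in a function list. Since they come from low levels, each list was read among its rows with a control mean under 4 FPKM, where 199 of 3485 rows (5.71%) were at 0 in CSR alone. Fatty and branched-chain acid oxidation had 7 of 29 such rows (24.1%) and DNA repair 4 of 20 (20.0%). Vesicle traffic had 7 of 71 (9.86%) and zinc finger genes 5 of 84 (5.95%). Pre-mRNA splicing had 0 of 40, mitochondrial ribosomal proteins 0 of 20, and G protein-coupled receptors 0 of 26. Histones and protamines had 0 of 11. Among these low rows the shares thus ran from 0 to 24.1%, over the lists named, of 11 to 84 rows.

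Some of the oxidation genes at 0 act on branched-chain amino acids, and others on fatty acids or acetate. *Bckdhb* and *Dbt*, subunits of the branched-chain ketoacid dehydrogenase, were at 0 in CSR and at 0.716, 1.10 and 0.511 and at 1.41, 0.853 and 1.29 FPKM in control. *Ivd* follows that complex in leucine breakdown. *Echs1*, enoyl-CoA hydratase, was at 1.27, 1.62 and 0.902 in control, and *Pccb*, of propionyl-CoA carboxylase, at 1.08, 0.996 and 0.710. *Acads*, the short-chain acyl-CoA dehydrogenase, was at 0.811, 1.22 and 0.710, and *Acss1*, which activates acetate in mitochondria, at 1.41, 2.09 and 1.25. All were listed at 0 in every CSR library, and *Dbt* was not on the list but named after its values were seen. *Ivd* alone passed limma; *Acss1* was tested without passing (adjusted p = 0.141) and the others, with *Acot6* as the remaining row of the list, were too low for the test.

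On the DNA replication and repair lists the rows at 0 were *Mcm3* and *Mcm4* of the replicative helicase, *Rad54l* and *Rad51d* of homologous recombination, *Fancl* of the Fanconi pathway and *Ercc6l*, a DNA translocase of mitotic chromosomes. *Rad54l* stood at 2.55, 2.34 and 1.76 FPKM in control and missed the threshold (limma adjusted p = 0.0585; 0.0335 without control library 3). *Mcm4* stood at 0.796, 1.22 and 1.11. The repair nuclease genes *Dclre1a* and *Slx1b*, which are not on these lists, were also at 0 in CSR, at 0.810, 1.03 and 0.962 and at 0.798, 0.959 and 0.937 FPKM in control. Other helicase subunits behaved otherwise, and *Mcm6* overlapped between groups at 3.78, 1.93 and 3.10 against 4.06, 2.79 and 2.54.

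A sorting of the 202 rows by known role, made after the rows were seen, placed 130. Signalling held 21, including the kinases *Jak2*, at 2.15, 2.18 and 1.58 FPKM in control, and *Abl1*, at 1.74, 2.47 and 3.27. Both were tested and missed the threshold with all libraries (limma adjusted p = 0.0689 and 0.0648). Membrane traffic, lysosome and phosphoinositides held 18, RNA processing, ribosome making and translation 17, and mitochondrial genes 17. Matrix, adhesion and cytoskeleton also held 17, among them *Col1a1* and the matrix genes *Ogn*, at 1.48, 1.51 and 0.399 in control, and *Ltbp1*, at 1.24, 1.35 and 0.846. The adhesion gene *Itgbl1* was at 1.13, 1.30 and 0.842. DNA replication, repair and cell division held 13 and chromatin and transcription 13, immune genes 8 and glycosylation 6. Markers of named cell types were few: *Col1a1*, *Srd5a1* of steroid metabolism, the meiotic axis gene *Hormad2* and the hemoglobin gene *Hbb-b1* were the 4 rows on a cell of origin list. No row of the spermatogonia, spermatid, Sertoli cell or immune cell lists used here was among the 202. Few rows of these lists had a control mean under 4 FPKM. There were 4 for spermatogonia, 5 for round and 1 for elongating spermatids, 7 for Sertoli cells and 10 for immune cells. Of all rows at that level, 5.71% were listed at 0 in CSR alone. *Testin*, a Sertoli cell product placed on another list, was among the 202, at 0.834, 0.464 and 0.728 FPKM in control.

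Small RNA genes were also listed. The table holds 33 miRNA hairpin rows, of which 7 reached the test and none passed. *Mir449a* was at 0 in CSR and at 1.45, 0.317 and 1.17 FPKM in control, and *Mir471* at 0 against 0.0449, 0.0663 and 0.973. They are shown with the relatives that share the miR-449a seed, because miR-34 and miR-449 act together in spermatogenesis. Mature 5′ arms (RefSeq, GRCr8) follow, with the seed, bases 2 to 8, in capitals.
rno-miR-449a-5p: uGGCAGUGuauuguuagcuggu
rno-miR-449c-5p: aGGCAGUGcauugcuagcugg
rno-miR-34a-5p: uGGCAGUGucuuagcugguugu
rno-miR-34c-5p: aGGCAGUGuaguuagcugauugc
rno-miR-471-5p: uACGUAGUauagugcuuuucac
The first 4 share the seed GGCAGUG, and the last has another. Within the shared seed the hairpin rows did not move together. *Mir34c* stood at 0.411, 3.76 and 0 FPKM in CSR against 0.0896, 0.102 and 0.117 in control, and *Mir449c* at 1.09, 0.222 and 0 against 0.116, 0.149 and 0.0813. *Mir34a* was at 0 throughout CSR and at 0, 1.72 and 0.0219 in control. FPKM over a hairpin of RNA selected by poly(A) is not a level of the mature miRNA.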

How the data were processed

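Testis RNA of 3 CSR and 3 control libraries was measured by RNA-seq, from poly(A) RNA per the labels' protocols. The authors deposited FPKM values, 1 row per RefSeq accession. Trimmomatic, HISAT2, StringTie and the rn6 build are named in the submitters' processing notes; versions, settings and the selection of the 7016 accessions were not given in the sources used here. No steps of whole reads could be seen among the low values. Depth is therefore unknown and no count test was run. Symbols for 6911 accessions came from the RefSeq gene table of assembly GRCr8, and 105 accessions had none.

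Groups and library numbers came from the labels. Rows with at least 1 FPKM in 3 or more libraries were tested with limma 3.58.1 in R 4.3.3 on log2(FPKM + 1), with a mean-variance trend and Benjamini-Hochberg adjustment over all 5657 rows at 0.05. Fold changes on this scale understate the change of low rows. The script was tested on simulated data. Lists by function and cell of origin were matched by symbol and are described by counts and medians, without a test. The genes and lists were chosen with earlier results of these data known. Named genes are the called rows, the abundant members of each list, the members with the largest differences whose groups did not overlap, and members at 0 throughout CSR. Members named because their groups overlapped were chosen after their values were seen. Alternatives changed the pseudocount, filter, scaling, limma options and libraries. Methylation libraries were not used here.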

Additional observations from a re-analysis of the deposited data

How the results depend on the processing

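The count of 25 called rows depended on the settings. It was 11 with a pseudocount of 0.1, 10 with 1 FPKM required in all 6 libraries and 16 with values above 0 in all 6. It was 77 without the mean-variance trend, 38 with array weights, and 7 with control libraries 1 and 2 averaged into 1. Leaving out 1 library gave 4 to 259 calls, the highest without control library 3. An alternative without control libraries 1 and 2 was added after seeing the data. Its median log2 fold change over all tested rows was -0.05, against -0.06 with all libraries. It leaves a lone control, assumed to vary like the CSR libraries, so its calls are not given. With the replicate number as a block, limma called 0 rows and 715 had an unadjusted p under 0.05, against 748 without the block. No label says that equal numbers pair the samples. Deviations of same-numbered libraries correlated at 0.03, 0.01 and 0.04, and not every library correlated best with its own number. So few libraries cannot exclude a pairing. Why the counts differ was not tested. Rows at 0 throughout CSR numbered 53 among tested rows, and 225 to 392 when 1 library was left out, with 392 without CSR library 2, 324 without CSR library 1 and 306 without control library 3. Of 48 lists with at least 5 tested rows, 26 kept the sign of their median relative to all rows under every alternative run. Without read counts, low values cannot be told from missed ones.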
